A study of Mus musculus with 6 samples.

Results

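The genes described here are those of the integrin and laminin families in mouse embryonic fibroblasts (MEFs). They were taken by symbol, as the protein-coding genes whose GENCODE M21 symbols begin with Itga, Itgb or Lam followed by a chain letter and number. The genes Itgb1bp1, Itgb1bp2 and Itgb3bp, which are named for binding integrins and are not integrin chains, were left out. They are counted in the adaptor list below by name alone. The rule used no measured value, but it was set with earlier results of these data known. It gave 39 of the 43346 genes in the count table, of which 38 are described, 28 integrin and 10 laminin genes. The β-like genes Itgb2l and Itgbl1 are counted among the 28. RNA had been sequenced from primary C57BL/6 MEFs at passage 9, kept for 24 h in DMSO, the solvent, or in 3 µM erastin, with 3 libraries per group. Erastin blocks cystine uptake by the antiporter made of the Slc7a11 and Slc3a2 products, which lowers glutathione and leads to ferroptosis, a death driven by iron-dependent lipid peroxidation. Both groups grew in a serum-containing medium that, per the labels' protocols, also held 2-mercaptoethanol, a thiol that helps cells take up cystine in another form. The cells are primary fibroblasts in culture, and a single dose and time were sampled.

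Integrins are transmembrane receptors made of an α and a β chain. The pairing sets the ligand: some pairs bind the Arg-Gly-Asp (RGD) sequence of fibronectin and vitronectin, others bind collagens, laminins or counter-receptors on other cells. Laminins are large secreted trimers of an α, a β and a γ chain that polymerise into basement membranes, where integrins and dystroglycan bind mainly to the α chain. In fibroblasts the integrins link the matrix to the actin skeleton through focal adhesions, plaques of adaptor proteins such as talin and vinculin.

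The libraries held between 13333911 and 20509970 reads counted to genes, so that 3 reads, taken as the detection floor, corresponded to between 0.14 and 0.234 CPM (counts scaled to a common library size with TMM factors, edgeR's trimmed mean of M-values). Fibroblast markers such as Col1a1, Vim and Thy1 were high in every library, as the label has it, but 8 of the 10 markers fell with erastin and 0 rose in the edgeR test (9 lower and 0 higher at an unadjusted p under 0.05, and the same counts with DESeq2). Of all 14000 genes tested, 21.5% were lower and 21.6% higher in the edgeR test at an adjusted p under 0.05. The summed level of the fibroblast markers was 28537 to 29724 CPM in the DMSO libraries and 16766 to 18731 CPM in the erastin libraries. Libraries of the same treatment correlated across genes at r from 0.981 to 0.991 and those of different treatments at 0.943 to 0.955, and no library stood apart from its group. The design text says that the experiment was run in triplicate, but nothing says whether the cultures came from separate embryos, so the p-values measure the spread between these libraries only. The labels name no molecular identifiers for the PCR-amplified reads, and the floors cover counting error only.

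Of the 38 genes, 32 passed the filter on low counts and 16 of those passed an adjusted p of 0.05, 6 of them higher and 10 lower with erastin. The share called among all 14000 genes tested was 43.1% (21.6% higher and 21.5% lower), against 50% of the integrin and laminin genes tested. The rises were those of the integrin chains Itgb3, Itga7 and Itga6, the laminin chain Lama5 and the thinly counted chains Itgb7 and Itga2. The falls were led by Itgb8, Itga4, Itgbl1, Itga1 and Itga9, with Lama4 the laminin gene that fell. Itga5, Itgb1, Lamb1 and Lamc1, the most abundant chains described of their classes in CPM per kb of the longest transcript, did not pass the test, and Lama4, the most abundant laminin α chain on that scale, fell. In CPM not divided by length Itgav was above Itga5 with DMSO and Lama5 above Lama4 with erastin, and with the merged length of all exons Lamb2 and Lama5 were above Lamb1 and Lama4 with erastin. In bulk RNA, a smaller number of cells of one type cannot be told apart from less of an RNA per cell. The part of the falling fibroblast markers in these differences was not tested.

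By family, 5 of the 22 integrin genes tested rose and 9 fell, and 1 of the 10 laminin genes rose and 1 fell. The shares called were 63.6% and 20%, against 43.1% of all genes tested (21.6% higher and 21.5% lower). The median log2 fold change was -0.05 over the 32 genes and -0.0014 over all genes tested. The erastin libraries lay all above or all below the DMSO libraries for 20 of the 32 genes (62.5%), against 52.5% of all genes tested. By depth, 14 of the 22 genes with a mean of at least 100 reads were called, and 2 of the 10 thinner ones. The share called among all genes was not split by depth, so these 2 counts have no background at their own depth.

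**Figure D1:**
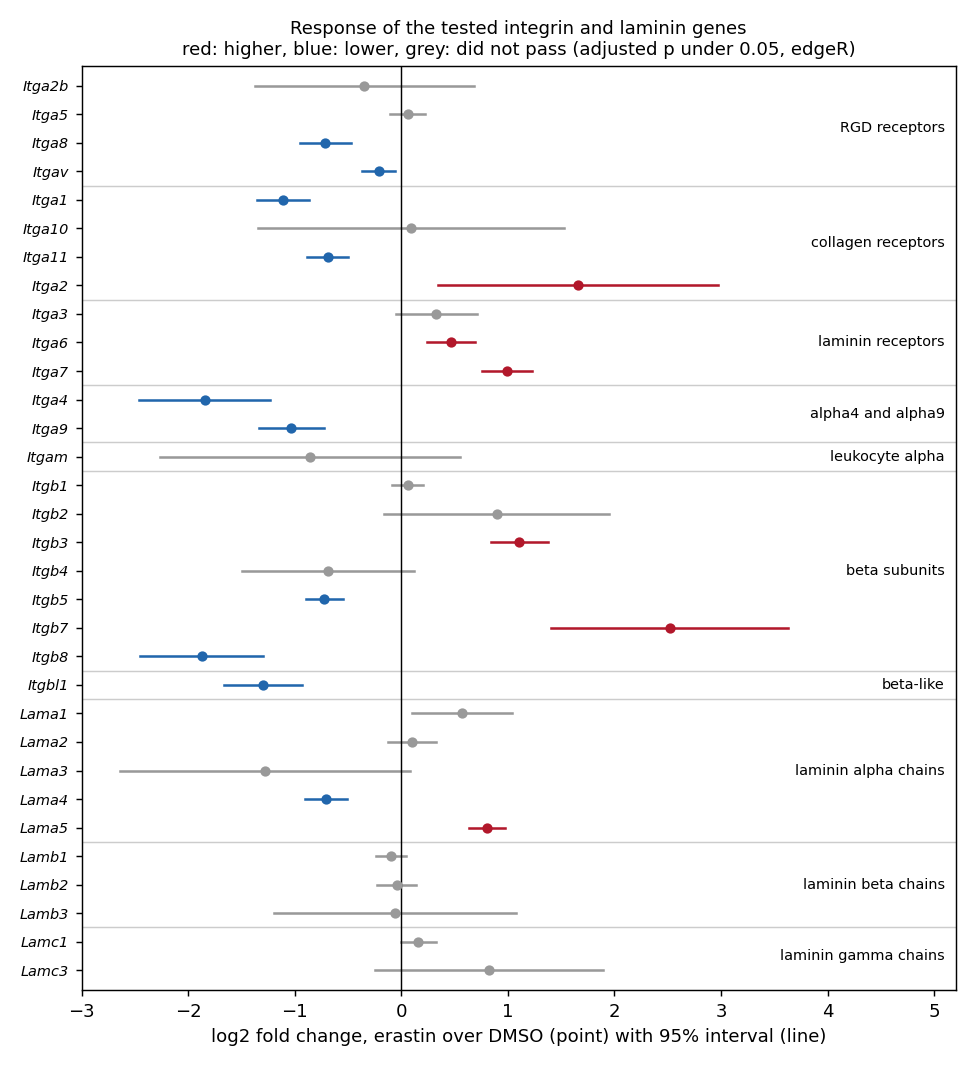
Log2 fold change (erastin against DMSO) of the 32 integrin and laminin genes that passed the low-count filter, grouped by role, with 95% intervals from the edgeR fit as bars. Red points (6 higher) and blue points (10 lower) passed an adjusted p of 0.05, and grey points did not.

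The sequences upstream of 4 of the changed genes are shown because they allow the starts of genes that rose and genes that fell to be compared letter by letter. They are the 2 higher and the 2 lower genes with the smallest adjusted p among the members present in the RefSeq promoter table (build GRCm38.p6), which held a window for 25 of the 38 genes. Each run is the 250 bases before the annotated start, 5′ to 3′ on the strand of the gene, and capitals mark the GC box GGGCGG on either strand. The windows are, for Lama5, chr2:180225860-180226109, minus strand, for Itgb7, chr15:102231936-102232185, minus strand, for Itga1, chr13:115101965-115102214, minus strand, and for Itgb5, chr16:33829415-33829664, plus strand.
Lama5: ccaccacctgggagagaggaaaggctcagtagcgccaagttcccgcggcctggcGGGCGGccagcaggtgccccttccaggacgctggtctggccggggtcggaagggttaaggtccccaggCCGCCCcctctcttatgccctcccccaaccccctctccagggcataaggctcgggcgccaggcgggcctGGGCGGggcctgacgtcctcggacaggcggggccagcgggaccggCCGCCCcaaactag
Itgb7: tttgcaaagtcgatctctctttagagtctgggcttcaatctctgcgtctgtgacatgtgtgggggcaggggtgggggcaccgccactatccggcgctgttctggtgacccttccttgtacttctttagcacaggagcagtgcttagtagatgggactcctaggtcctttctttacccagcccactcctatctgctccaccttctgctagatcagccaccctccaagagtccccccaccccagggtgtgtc
Itga1: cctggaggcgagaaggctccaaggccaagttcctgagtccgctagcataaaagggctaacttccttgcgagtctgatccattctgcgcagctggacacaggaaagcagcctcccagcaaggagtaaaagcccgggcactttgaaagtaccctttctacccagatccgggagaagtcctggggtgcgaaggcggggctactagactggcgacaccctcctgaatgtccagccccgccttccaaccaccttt
Itgb5: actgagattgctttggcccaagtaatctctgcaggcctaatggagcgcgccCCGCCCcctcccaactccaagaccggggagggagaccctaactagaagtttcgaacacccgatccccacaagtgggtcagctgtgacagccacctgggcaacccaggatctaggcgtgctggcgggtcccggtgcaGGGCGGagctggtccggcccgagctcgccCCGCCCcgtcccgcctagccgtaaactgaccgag

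The Lama5 stretch held 4 GC boxes and the Itgb5 stretch 3, although Lama5 rose and Itgb5 fell, and the stretches of Itgb7 and Itga1 held 0. Over the full windows, which reach 50 bases past the start, the GC box was in 2 of the 3 genes called higher that had a window and in 4 of the 9 called lower, beside 35.7% of all 32851 windows in the table. The other motifs searched on both strands were the AP-1 site TGANTCA (7.81% of all windows), the cyclic AMP response element TGACGTCA (1.79%), the antioxidant response element core TGACNNNGC (12.4%), the CHOP and ATF4 composite element TGATGNAA (3.97%), the TEAD site GGAATG (14.7%) and the CArG box (1.63%). None of these was in a window of a gene called higher. Among the genes called lower, only Itga9 held any, 1 AP-1 match and 1 antioxidant core match, in a window at an internal start of the gene. No match of one motif overlapped a match of another. A match is a description of the letters and not a bound site.

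Among the α chains that bind RGD ligands, Itga5 did not pass the test, and Itgav and Itga8 fell. Itga5 (ENSMUSG00000000555.6, chr15:103344286-103366763, minus strand), the α chain of the classical fibronectin receptor, was at 459, 438 and 429 CPM with DMSO and 486, 481 and 415 CPM with erastin. The groups overlapped, with a log2 difference of 0.059 with a 95% interval from -0.10 to 0.22 and an edgeR adjusted p of 0.560. Itgav (ENSMUSG00000027087.7, chr2:83724397-83806916, plus strand), the vitronectin receptor chain that pairs with several β chains and also binds latent TGF-β, was at 571, 533 and 484 CPM with DMSO and 461, 467 and 443 CPM with erastin. All erastin libraries lay below the lowest DMSO library, by a small margin. Itgav fell, with a log2 fold change of -0.21 (SE 0.074, edgeR adjusted p = 0.0296), but this was the least stable of the falls: the adjusted p was 0.149 with total-count scaling, and it passed in only 1 of the 6 fits that left out a library, that without DMSO replicate 3 (adjusted p = 0.00663). Without DMSO replicate 1 or 2 it was 0.124 or 0.0917, and without erastin replicate 1, 2 or 3 it was 0.0778, 0.0512 or 0.0769.

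Itga8 (ENSMUSG00000026768.6, chr2:12106632-12301922, minus strand), the receptor chain for nephronectin, was at 47.7, 43.8 and 45.3 CPM with DMSO and 26.6, 31.1 and 25.9 CPM with erastin. It was lower in every erastin library and fell 1.64-fold, with a log2 fold change of -0.71 (SE 0.11, edgeR adjusted p = 1.08e-04). The platelet fibrinogen receptor chain Itga2b was low, at 2.95, 1.66 and 3.42 CPM with DMSO and 1.77, 3.29 and 1.24 CPM with erastin, with overlapping groups and a log2 difference of -0.35 with a 95% interval from -1.38 to 0.68 and an edgeR adjusted p of 0.599.

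Of the collagen-binding α chains, Itga11 and Itga1 fell and Itga2 rose. Itga11 (ENSMUSG00000032243.8, chr9:62677826-62783982, plus strand), a receptor for fibrillar collagen on fibroblasts, was the most abundant of them, at 241, 278 and 310.2 CPM with DMSO and 170.3, 181 and 163 CPM with erastin. The erastin libraries were close together and all below the DMSO libraries, and Itga11 fell 1.61-fold, with a log2 fold change of -0.69 (SE 0.09, edgeR adjusted p = 2.29e-05). Itga1 (ENSMUSG00000042284.9, chr13:114953096-115101964, minus strand), which prefers basement membrane collagen, was at 53.6, 46.5 and 60.6 CPM with DMSO and 25.1, 24.8 and 24.6 CPM with erastin. Its erastin values were nearly equal in the 3 libraries, at less than the lowest DMSO value, and it fell 2.15-fold, with a log2 fold change of -1.11 (SE 0.11, edgeR adjusted p = 2.18e-06).

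Itga2 (ENSMUSG00000015533.8, chr13:114833081-114932100, minus strand), a collagen receptor known from platelets and epithelia, lies next to Itga1 on the same strand of chromosome 13. It was at 0.831, 1.05 and 0.389 CPM with DMSO and 2.70, 3.77 and 0.882 CPM with erastin, with 11, 19 and 5 reads with DMSO and 58, 63 and 17 reads with erastin. The lowest erastin library lay within the DMSO range, and the 2 others above it. It rose on the test, with a log2 fold change of 1.66 (SE 0.61, edgeR adjusted p = 0.0402), but the adjusted p passed in only 1 of the 6 fits without a library, that without erastin replicate 3 (0.0101). Without DMSO replicate 1, 2 or 3 it was 0.0858, 0.055 or 0.106, without erastin replicate 1 or 2 it was 0.129 or 0.207, and with a GC and length offset it was 0.0579. Itga10, the cartilage collagen receptor chain, was at 0.831, 0.887 and 0.467 CPM with DMSO and 0.838, 0.299 and 1.19 CPM with erastin, with a log2 difference of 0.092 with a 95% interval from -1.34 to 1.52 and an edgeR adjusted p of 0.926. Of its exon sequence, 33.5% is shared with another gene model on the same strand, so that its reads may not all be its own.

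The laminin-binding α chains were higher where they passed the test. Itga7 (ENSMUSG00000025348.8, chr10:128933818-128958282, plus strand), the laminin receptor chain of muscle, was at 21.3, 23.9 and 23.7 CPM with DMSO and 47.3, 47.4 and 42.5 CPM with erastin. Every erastin library was well above every DMSO library, and Itga7 rose 1.99-fold, with a log2 fold change of 0.99 (SE 0.11, edgeR adjusted p = 4.82e-06). The summed level of 6 muscle markers was 86.9 to 107 CPM with DMSO and 82.3 to 91.2 CPM with erastin, where Des rose and Acta1 fell, and 5 Schwann and neural markers summed to 63.4 to 75.2 and 79.6 to 104 CPM, where Nes, the 1 gene tested, rose. Their part in the rise of Itga7 was not tested. Itga6 (ENSMUSG00000027111.11, chr2:71745616-71858416, plus strand), which pairs with Itgb1 or with the hemidesmosome chain Itgb4, was at 30.4, 31.1 and 34.6 CPM with DMSO and 45.9, 42.1 and 44.6 CPM with erastin. All erastin libraries were higher, and it rose 1.38-fold, with a log2 fold change of 0.47 (SE 0.10, edgeR adjusted p = 0.00226). Itga3, which binds the laminins of epithelia and of vessels, was at 15.8, 12.9 and 17.8 CPM with DMSO and 18.9, 23.4 and 16.0 CPM with erastin. Its groups overlapped, with a log2 difference of 0.33 with a 95% interval from -0.051 to 0.71 and an edgeR adjusted p of 0.153.

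The closely related chains Itga4 and Itga9 both fell. Itga4 (ENSMUSG00000027009.14, chr2:79255426-79333123, plus strand), which binds fibronectin and the adhesion molecule Vcam1, was at 8.61, 11.4 and 9.89 CPM with DMSO and 1.86, 2.69 and 3.79 CPM with erastin. Every erastin library was below every DMSO library, and Itga4 fell 3.59-fold, with a log2 fold change of -1.84 (SE 0.29, edgeR adjusted p = 1.24e-04). Its exons overlap those of Cerkl on the opposite strand over 1124 bases (8.04% of its exon length), and the sources used here do not say whether counting used strand. The like overlap was 3.68% for Itga1 (same strand) and 5.05% and 5.90% for Itga8 and Itgav (opposite strand). Itga9 (ENSMUSG00000039115.9, chr9:118606690-118901003, plus strand), a receptor for tenascin C, was at 25.2, 26.6 and 28.7 CPM with DMSO and 14.5, 13.0 and 11.9 CPM with erastin. Its groups were also separate, and it fell 2.04-fold, with a log2 fold change of -1.03 (SE 0.14, edgeR adjusted p = 3.69e-05).

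**Figure D2:**
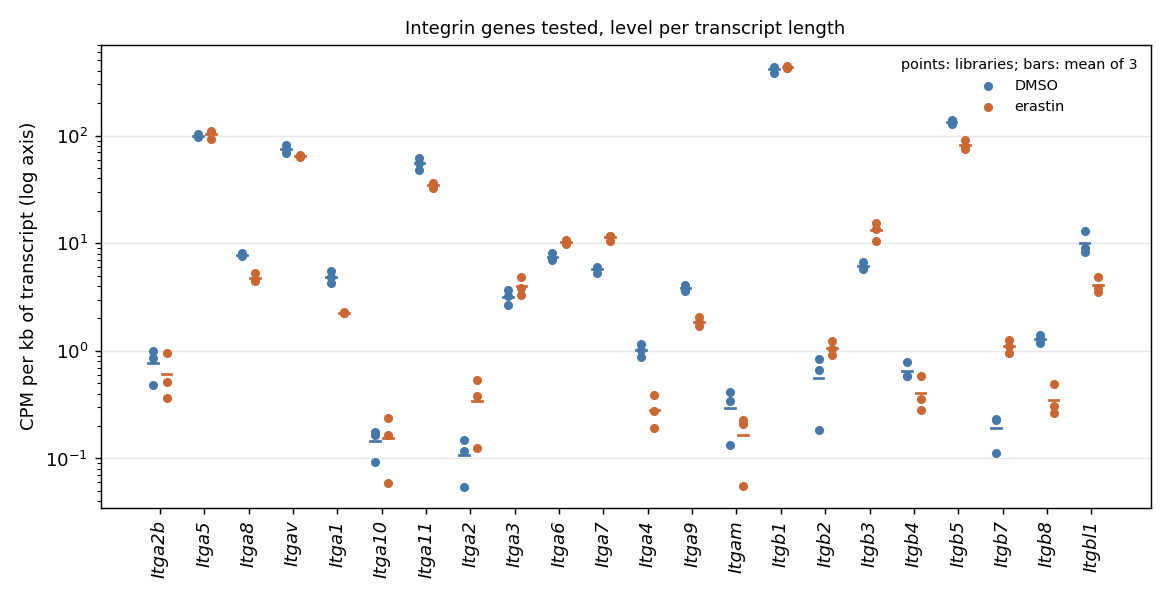
Level of the 22 integrin genes that passed the filter, in CPM per kb of transcript on a log axis, DMSO and erastin side by side, with a point for each library and a bar for the mean of 3. Itgb1 has the highest points in both groups, Itgb3 and Itga7 show separate and higher erastin points, and Itga4, Itga9 and Itgb8 separate and lower ones.

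The α chains of leukocytes were thinly counted. Itgam, the complement receptor chain of macrophages, was counted at 21, 35 and 8 reads with DMSO and 21, 18 and 5 reads with erastin, with a log2 difference of -0.85 with a 95% interval from -2.26 to 0.55 and an edgeR adjusted p of 0.317. Of its exon sequence, 68.7% is shared with another gene model on the same strand. Itgal, Itgax, Itgad and Itgae, chains of lymphocytes, dendritic cells and macrophages, did not pass the filter. Itgal had 1 to 13 reads, Itgax 0 to 14, Itgad 1 to 6 and Itgae 0 to 1 per library. The leukocyte list of 8 genes summed to 22.4 to 43.1 CPM with DMSO and 28.2 to 58.7 CPM with erastin. Its members were counted unevenly, with Cd3e at no more than 2 reads in a library, Csf1r at 53 to 168 and Lyz2 at 144 to 804. Of its 6 tested genes 0 passed the adjusted p of the edgeR test, 2 were higher at an unadjusted p under 0.05 (Cd68 and Lyz2), and 1 was higher with DESeq2.

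Among the β chains, the common partner Itgb1 did not pass the test, and of the partners of αv Itgb5 and Itgb8 fell and Itgb3 rose. Itgb1 (ENSMUSG00000025809.11, chr8:128685654-128733200, plus strand), which pairs with most of the α chains above, was at 1661, 1612 and 1472 CPM with DMSO and 1704, 1626 and 1618 CPM with erastin. The groups overlapped, with a log2 difference of 0.06 with a 95% interval from -0.083 to 0.20 and an edgeR adjusted p of 0.503, and the sign turned, to -0.03, after the GC and length offset. Itgb5 (ENSMUSG00000022817.10, chr16:33829665-33949338, plus strand), a partner of αv in vitronectin receptors, was at 425, 457 and 446 CPM with DMSO and 249, 256 and 300.4 CPM with erastin. Each erastin library was well below the DMSO libraries, and Itgb5 fell 1.65-fold, with a log2 fold change of -0.72 (SE 0.08, edgeR adjusted p = 4.41e-06). Itgb3 (ENSMUSG00000020689.4, chr11:104608000-104670476, plus strand), the other vitronectin receptor partner of αv and known for its high levels in platelets and osteoclasts, was at 38.4, 34.3 and 33.3 CPM with DMSO and 88.6, 79.1 and 60.6 CPM with erastin. The erastin libraries varied more among themselves but were all above the DMSO libraries, and Itgb3 rose 2.16-fold, with a log2 fold change of 1.11 (SE 0.13, edgeR adjusted p = 6.36e-06).

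Itgb8 (ENSMUSG00000025321.10, chr12:119158022-119238802, minus strand), a partner of αv that takes part in the activation of latent TGF-β, was at 9.97, 10.8 and 11.8 CPM with DMSO and 2.56, 2.22 and 4.10 CPM with erastin. The groups did not overlap, and it fell 3.66-fold, with a log2 fold change of -1.87 (SE 0.27, edgeR adjusted p = 6.01e-05). Itgb6, the epithelial partner of αv, had 0 to 12 reads and was not tested. Itgb7 (ENSMUSG00000001281.5, chr15:102215995-102231944, minus strand), which pairs with α4 and αE in lymphocyte homing, was thinly counted, with 4, 11 and 8 reads with DMSO and 55, 57 and 58 reads with erastin. It was at 0.302, 0.610 and 0.623 CPM with DMSO and 2.56, 3.41 and 3.01 CPM with erastin, with all erastin libraries higher, and rose 5.73-fold, with a log2 fold change of 2.52 (SE 0.52, edgeR adjusted p = 0.00111). Only 2 of the DMSO libraries reached the minimum count, so that Itgb7 passed the filter through the erastin group, where it is high. The same held for Itga2 and Itgb2. Lama3 and Itgam passed through the DMSO group, and Itga10 reached the minimum in 2 libraries of each group. Of the α partners of Itgb7, Itga4 fell and Itgae had at most 1 read. The leukocyte markers are given above, and their part in the rise of Itgb7 was not tested.

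The leukocyte chain Itgb2 was at 1.96, 2.49 and 0.545 CPM with DMSO and 3.63, 3.11 and 2.70 CPM with erastin, with groups that did not overlap but a log2 difference of 0.89 with a 95% interval from -0.16 to 1.95 and an edgeR adjusted p of 0.161. The hemidesmosome chain Itgb4 was at 3.63, 3.66 and 4.90 CPM with DMSO and 1.77, 3.59 and 2.23 CPM with erastin, also without overlap, with a log2 difference of -0.69 with a 95% interval from -1.49 to 0.12 and an edgeR adjusted p of 0.161. Both lie at a depth where differences of this size did not pass. Itgb2l, a β-like gene, had 0 reads in every library, which allows up to 0.14 to 0.234 CPM depending on the library. Itgbl1 (ENSMUSG00000032925.12, chr14:123659971-123975618, plus strand), a secreted protein with EGF-like repeats like those of β chains, was at 33.5, 36.4 and 52.9 CPM with DMSO and 14.4, 15.7 and 19.8 CPM with erastin. It was lower in every erastin library and fell 2.46-fold, with a log2 fold change of -1.30 (SE 0.17, edgeR adjusted p = 2.79e-05).

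Ratios within a library compare chains without regard to library scaling, and were taken from CPM per kb of the longest transcript. In all, 31 ratios and shares were compared by an exact two-sided permutation test over libraries, for which 3 against 3 cannot give less than p = 0.1. Of the 31, 27 reached that value, with a Benjamini-Hochberg adjusted p of 0.115. None can pass 0.05, so the separation of the libraries is given instead. How often ratios of other genes separate was not examined, so the 27 have no background share beside them. The log2 ratio of Itgb3 to Itgb5 went from -4.47 ± 0.157 with DMSO to -2.65 ± 0.426 with erastin (SD, n = 3), with separate groups. Itgb3 rose and Itgb5 fell with separate groups each, so this separation follows from the levels and is no further evidence. Per length, Itgb5 was nonetheless the more abundant in both groups, at 135 CPM per kb with DMSO and 81.8 with erastin, while Itgb3 was at 6.11 CPM per kb with DMSO and 13.2 with erastin. Among the β chains Itgb1 made up 74.2% ± 1.55 with DMSO and 81.5% ± 1.24 with erastin (SD, n = 3), and Itgb5 24.2% ± 1.56 with DMSO and 15.4% ± 1.69 with erastin. Among the α chains Itga5 made up 37.6% ± 1.12 with DMSO and 43.4% ± 1.28 with erastin, Itgav 28.2% ± 2.21 with DMSO and 27.0% ± 0.914 with erastin and Itga11 20.9% ± 2.73 with DMSO and 14.4% ± 0.422 with erastin. The Itga5 and Itga11 shares did not overlap between groups, and the Itgav share did. A share also depends on the other chains of its class, and the levels of Itgb1 and Itga5 themselves did not pass the test. The share of Itga7 was 2.15% ± 0.149 with DMSO and 4.74% ± 0.0316 with erastin, and that of Itga6 2.79% ± 0.207 with DMSO and 4.29% ± 0.363 with erastin, again with separate groups. With the merged length of all exons these shares were 1.31% and 2.95% for Itga7 and 1.64% and 2.57% for Itga6.

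Among the laminin α chains the balance between Lama4 and Lama5 shifted. Lama4 (ENSMUSG00000019846.7, chr10:38965515-39110188, plus strand), the α chain of vessel walls and mesenchyme, was at 220.4, 276 and 287 CPM with DMSO and 159.8, 153 and 166 CPM with erastin. The erastin libraries were nearly equal and below all DMSO libraries, and Lama4 fell 1.63-fold, with a log2 fold change of -0.71 (SE 0.093, edgeR adjusted p = 2.36e-05). Lama5 (ENSMUSG00000015647.9, chr2:180176373-180225859, minus strand), the α chain found in most basement membranes after birth, was at 125, 117 and 116 CPM with DMSO and 207, 223 and 195 CPM with erastin. Every erastin library was well above every DMSO library, and Lama5 rose 1.75-fold, with a log2 fold change of 0.80 (SE 0.078, edgeR adjusted p = 1.23e-06). The log2 ratio of Lama5 to Lama4 per length went from -2.04 ± 0.265 with DMSO to -0.53 ± 0.152 with erastin (SD, n = 3), with separate groups (exact permutation p = 0.1). Since the levels of both chains were separate and moved in opposite directions, this separation had to follow and is no further evidence.

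The share of Lama5 among laminin α chains was 20.8%, 16.6% and 15.9% with DMSO and 35.8%, 37.5% and 33.6% with erastin, and the share of Lama4 was 69.0%, 73.8% and 74.1% with DMSO and 52.1%, 48.7% and 53.9% with erastin. Both shares were separate between the groups. Lama4 was the leading α chain in both groups on this scale, but the order depended on the length used. With the merged length of all exons in place of the longest transcript, the Lama4 share was 60.1% ± 3.67 with DMSO and 37.0% ± 2.34 with erastin, and the Lama5 share 29.4% ± 3.66 and 51.0% ± 2.16 (SD, n = 3), so that Lama5 led in the erastin libraries. The 6 endothelial markers summed to 5.16 to 7.71 CPM with DMSO and 14.1 to 17.6 CPM with erastin, with Kdr and Tek higher; Pecam1 had at most 15 reads, Cdh5 at most 12 and Tie1 at most 3 in a library. Their part in the levels of Lama4, Lama5 and Itgb3 was not tested.

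**Figure D3:**
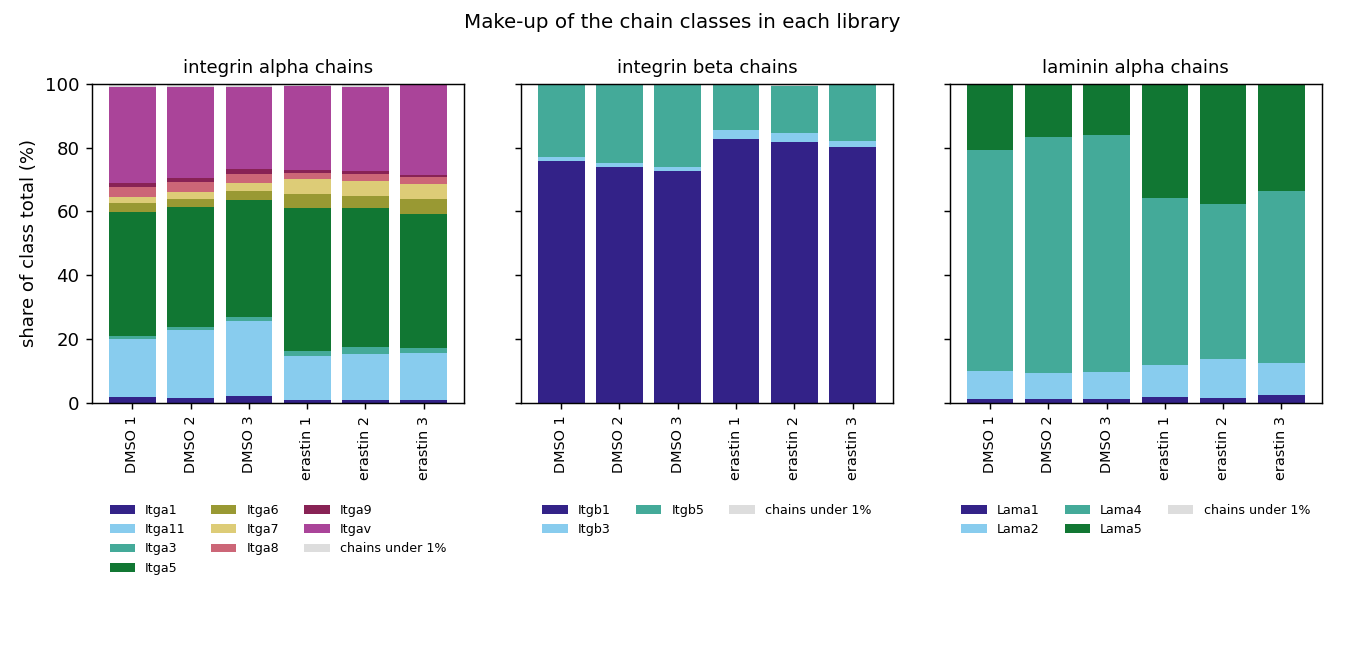
Percent share of each chain within its class, from CPM per kb of the longest transcript, for integrin α, integrin β and laminin α chains in the 6 libraries; chains under 1% are pooled in grey. Within the laminin α chains the Lama5 part is between 15.9% and 20.8% in the DMSO libraries and between 33.6% and 37.5% in the erastin libraries, and within the β integrins the Itgb5 part is smaller with erastin.

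The remaining laminin α chains did not pass the test. Lama2, the α chain of muscle and nerve, was at 45.3, 49.7 and 53.0 CPM with DMSO and 49.4, 60.2 and 49.3 CPM with erastin. The groups overlapped, with a log2 difference of 0.10 with a 95% interval from -0.13 to 0.33 and an edgeR adjusted p of 0.485, and the sign turned to -0.01 under the GC and length offset. Lama1, the α chain of early embryonic basement membranes, was at 5.97, 6.71 and 7.01 CPM with DMSO and 8.99, 8.44 and 11.8 CPM with erastin. All erastin libraries were higher than the DMSO libraries, with a log2 difference of 0.57 with a 95% interval from 0.10 to 1.04 and an edgeR adjusted p of 0.0502, just above the threshold. It passed in 4 of 16 alternatives. Lama3, the α chain of epithelial anchoring laminins, was counted at 11, 14 and 19 reads with DMSO and 10, 7 and 7 reads with erastin, with a log2 difference of -1.28 with a 95% interval from -2.64 to 0.084 and an edgeR adjusted p of 0.118.

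Of the 3 β chains of laminin 0 passed the edgeR test, 0 were under an unadjusted p of 0.05 and 0 passed with DESeq2. Lamb1, the widespread β chain, was at 559, 598 and 616 CPM with DMSO and 570.2, 550.2 and 537 CPM with erastin. The groups overlapped, with a log2 difference of -0.10 with a 95% interval from -0.24 to 0.047 and an edgeR adjusted p of 0.269. Lamb2, the β chain of the neuromuscular synapse and the kidney glomerulus, was at 319, 354 and 410.1 CPM with DMSO and 362, 346 and 342 CPM with erastin. It also overlapped, with a log2 difference of -0.044 with a 95% interval from -0.23 to 0.14 and an edgeR adjusted p of 0.713, and its sign depended on the scaling. The epithelial chain Lamb3 was low, at 1.51, 1.27 and 2.10 CPM with DMSO and 1.54, 0.778 and 2.33 CPM with erastin, with a log2 difference of -0.059 with a 95% interval from -1.20 to 1.08 and an edgeR adjusted p of 0.941.

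Lamc1 and Lamc3 did not pass the test. Lamc1 (ENSMUSG00000026478.10, chr1:153218922-153332786, minus strand), the γ chain of most laminins, was at 418, 484 and 495 CPM with DMSO and 498, 545 and 519 CPM with erastin. The erastin libraries were all slightly above the DMSO libraries, with a log2 difference of 0.16 with a 95% interval from -0.0044 to 0.33 and an edgeR adjusted p of 0.109. It passed with total-count scaling alone (0.0242). Lamc3, a minor γ chain, was at 1.21, 1.66 and 1.17 CPM with DMSO and 2.00, 3.71 and 1.50 CPM with erastin, with a log2 difference of 0.82 with a 95% interval from -0.25 to 1.89 and an edgeR adjusted p of 0.206. The 8 epithelial and keratinocyte markers summed to 14.5 to 18.1 CPM with DMSO and 15.4 to 26.9 CPM with erastin. Krt5 and Krt14 had no more than 3 reads in a library, and Krt19 had 157 to 421. Of 2 genes tested 0 passed the adjusted p of the edgeR test, 1 (Krt19) was higher at an unadjusted p under 0.05, and 1 was higher with DESeq2. Their part in the levels of Itga6 and Itga2 was not tested.

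**Figure D4:**
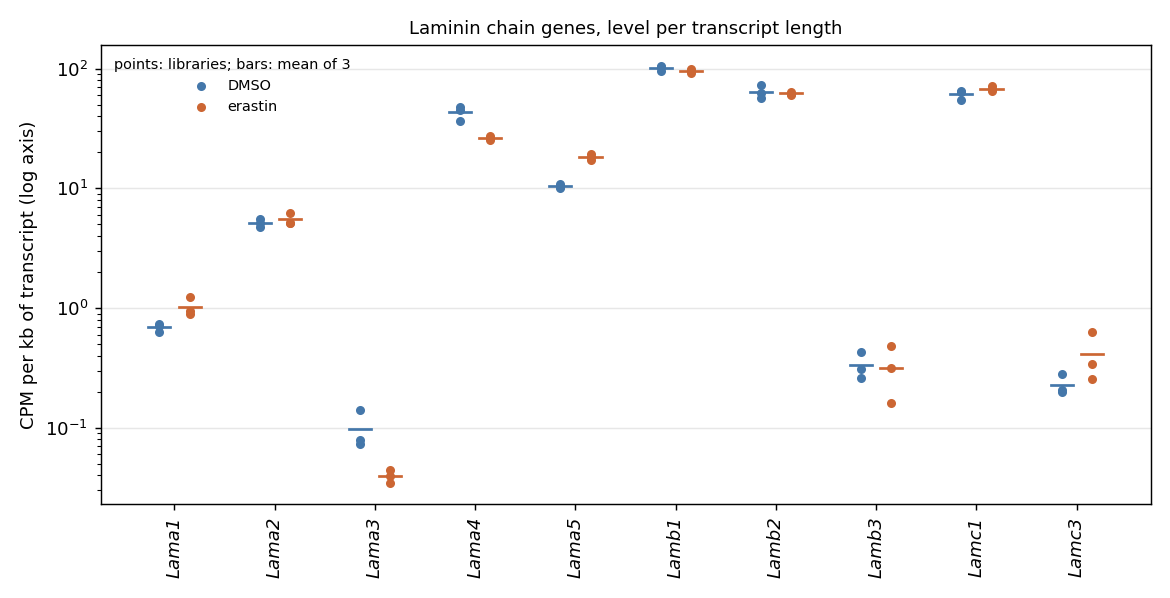
Level of 10 laminin genes in each of the 6 libraries, in CPM per kb of transcript on a log axis, with a point for each library and a bar for the mean of 3. Lama5 has separate and higher erastin points, Lama4 separate and lower ones, and Lamb1, Lamb2 and Lama2 overlap.

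The genes that act with these receptors were read from 4 lists. Of 17 tested ligands of integrins, 2 rose and 11 fell, with a median log2 fold change of -0.31. The share called was 76.5%, against 43.1% of all genes tested (21.6% higher and 21.5% lower). Most of the list are matrix proteins, but it also held the cell-surface counter-receptors Icam1 and Vcam1. Icam1 was among the falls (log2 fold change -0.37, edgeR adjusted p = 0.00731), and Vcam1 did not pass (edgeR adjusted p = 0.0978). Fibronectin itself (Fn1), the ligand of the Itga5 receptor, was at 8083 ± 1029.7 CPM with DMSO and 8512 ± 290.2 CPM with erastin (SD, n = 3), with a log2 difference of 0.075 with a 95% interval from -0.10 to 0.25 and an edgeR adjusted p of 0.495. The falls with the smallest p were those of Edil3, an RGD protein that binds αv integrins, and of Tgfbi, Fbn1 and Ecm1. Edil3 was at 38.1 ± 5.28 CPM with DMSO and 21.3 ± 1.28 CPM with erastin (log2 fold change -0.84, edgeR adjusted p = 9.05e-05). Tgfbi, an RGD-bearing matrix protein induced by TGF-β, was at 45.4 ± 5.97 CPM with DMSO and 24.4 ± 4.05 CPM with erastin (log2 fold change -0.90, edgeR adjusted p = 9.61e-05). The microfibril gene Fbn1 was at 2500.2 ± 147 CPM with DMSO and 1832 ± 103 CPM with erastin (log2 fold change -0.45, edgeR adjusted p = 9.77e-05). Ecm1 was at 309 ± 10.1 CPM with DMSO and 219 ± 21.8 CPM with erastin (log2 fold change -0.49, edgeR adjusted p = 1.68e-04). All 4 are secreted into the matrix. The 2 that rose were the tenascin gene Tnc (log2 fold change 0.24, edgeR adjusted p = 0.0188), a ligand of the Itga9 receptor, and Fbln5 (log2 fold change 0.25, edgeR adjusted p = 0.00743), an elastic fibre protein.

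Of 17 basement membrane partners of laminin, 3 rose and 6 fell, with a median of -0.18. The share called, 52.9%, was near the 43.1% of all genes tested (21.6% higher and 21.5% lower). The laminin-binding linker protein gene Nid2 was at 208 ± 16.4 CPM with DMSO and 90.7 ± 10.1 CPM with erastin (log2 fold change -1.19, edgeR adjusted p = 1.44e-07), whereas its relative Nid1 rose slightly (log2 fold change 0.21, edgeR adjusted p = 0.0284). The syndecan gene Sdc1 was at 282 ± 11.4 CPM with DMSO and 134 ± 11.9 CPM with erastin (log2 fold change -1.08, edgeR adjusted p = 1.03e-07). The gene of dystroglycan, Dag1, a main laminin receptor that is not an integrin, was at 404 ± 11.3 CPM with DMSO and 298 ± 29.6 CPM with erastin (log2 fold change -0.44, edgeR adjusted p = 3.76e-04). Bcam, a receptor for the Lama5 chain, was at 3.73 ± 1.17 CPM with DMSO and 0.476 ± 0.200 CPM with erastin (log2 fold change -2.94, edgeR adjusted p = 3.81e-04). It was thinly counted, with 38, 59 and 65 reads with DMSO and 15, 7 and 6 reads with erastin. Not all erastin libraries reached the minimum count, so that Bcam passed the filter through the DMSO group, where it is high. Lama5 itself rose, as given above, and Dag1 and Bcam fell. Of the laminin-binding integrin α chains, Itga7 and Itga6 rose and Itga3 did not pass, as given above. Beside Nid1, the other 2 partners in this list that rose were Ntn4 (log2 fold change 0.59, edgeR adjusted p = 0.00185) and Col4a5 (log2 fold change 0.49, edgeR adjusted p = 0.00196).

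Of 34 tested focal adhesion adaptors, 3 rose and 15 fell, with a median of -0.22. The share called was 52.9%, against 43.1% of all genes tested (21.6% higher and 21.5% lower). The list included Itgb1bp1 and Itgb3bp by name alone, and neither passed (edgeR adjusted p = 0.583 and 0.962). Vcl, the gene of vinculin, which ties talin to actin, was at 828 ± 42.4 CPM with DMSO and 403 ± 4.36 CPM with erastin (log2 fold change -1.04, edgeR adjusted p = 2.17e-08). Fblim1, the gene of a filamin-binding adaptor, was at 76.3 ± 9.13 CPM with DMSO and 24.6 ± 1.14 CPM with erastin (log2 fold change -1.63, edgeR adjusted p = 3.01e-08). Parva, which binds integrin-linked kinase, was at 305 ± 17.0 CPM with DMSO and 181 ± 2.30 CPM with erastin (log2 fold change -0.75, edgeR adjusted p = 9.69e-07). Nedd9, a docking protein of the focal adhesion kinase pathway, was at 95.7 ± 8.63 CPM with DMSO and 49.3 ± 3.73 CPM with erastin (log2 fold change -0.96, edgeR adjusted p = 1.68e-06). The rises were Git1, Parvb and Fermt2, the last with an adjusted p of 0.0489 in edgeR. The number of adaptors called higher was 2 in 11 of the 17 other settings and 3 or 4 in the rest.

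Of 13 membrane proteins that associate with integrins, 3 rose and 6 fell, with a median of -0.31. The share called was 69.2%, against 43.1% of all genes tested (21.6% higher and 21.5% lower). Of the tetraspanins, small proteins that gather integrins in the membrane, Cd81, Tspan4, Cd63, Cd9 and Cd151 fell, and Cd82 did not pass (log2 fold change -0.31, edgeR adjusted p = 0.0636). Cd81 was at 681 ± 43.1 CPM with DMSO and 328 ± 13.5 CPM with erastin (log2 fold change -1.06, edgeR adjusted p = 3.58e-08). Tspan4 was at 183 ± 7.57 CPM with DMSO and 75.2 ± 7.0 CPM with erastin (log2 fold change -1.28, edgeR adjusted p = 3.58e-08), and Cd63 at 424 ± 6.39 CPM with DMSO and 239.9 ± 5.21 CPM with erastin (log2 fold change -0.82, edgeR adjusted p = 1.82e-07). The hyaluronan receptor gene Cd44 was at 551 ± 52.1 CPM with DMSO and 1334 ± 198 CPM with erastin (log2 fold change 1.28, edgeR adjusted p = 1.65e-07). Slc3a2, which joins β integrins and is also the heavy chain of the antiporter that erastin blocks, rose (log2 fold change 0.93, edgeR adjusted p = 3.20e-07), as did the urokinase receptor gene Plaur (log2 fold change 2.04, edgeR adjusted p = 5.74e-07). The fibroblast markers fell over the same contrast, as given above, and their part in the falls of these lists was not tested.

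**Figure D5:**
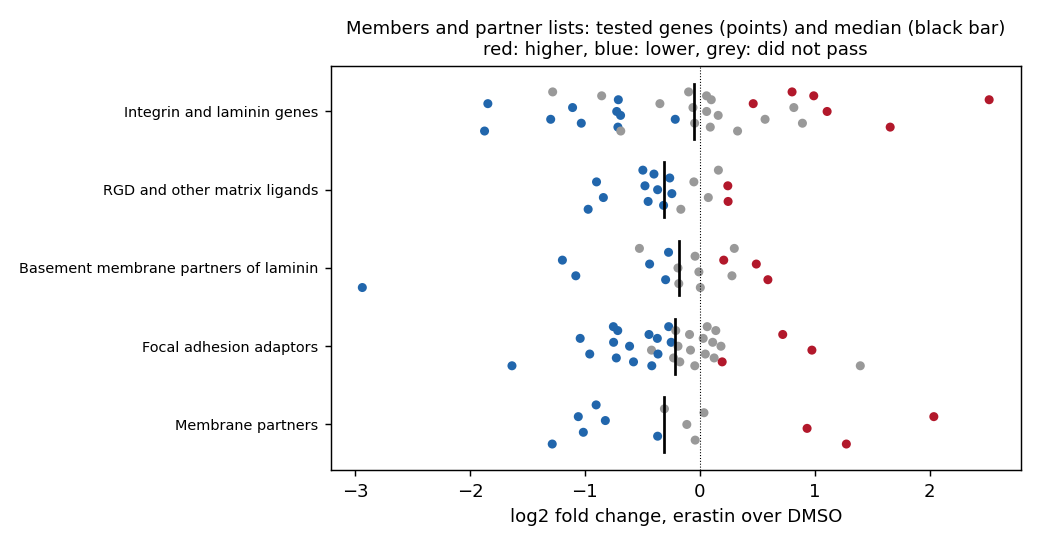
Log2 fold change (erastin against DMSO) of every tested integrin and laminin gene and of the 4 partner lists, red for higher and blue for lower at an adjusted p under 0.05, grey otherwise, with a bar at each median. The medians of the partner lists lie at -0.31, -0.18, -0.22 and -0.31, and that of the integrin and laminin genes at -0.05.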

How the data were processed

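Read counts per gene were deposited as whole numbers, not normalized by the authors, in 6 columns; 0 other columns of values were left unused. Per the labels' protocols, RNA depleted of ribosomal RNA was sequenced on an Ion Proton instrument after PCR. HTSeq 0.9.1, SAMtools and build mm10 are named in the submitters' processing notes; the aligner, annotation and strand setting are not given in the sources used here. The versioned Ensembl identifiers were matched without version to GENCODE M21 (42462 of 43346, 98.0%, had a symbol), which gave coordinates (GRCm38) and transcript lengths.

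Counts were analysed in R 4.3.3 with edgeR 4.0.16 and limma 3.58.1. Genes were kept by filterByExpr (minimum count 10, total 15), scaled by TMM and tested with the quasi-likelihood test over 6 libraries with treatment as the only term. P-values were Benjamini-Hochberg adjusted over 14000 genes (threshold 0.05). Intervals are at 95% and SEs are on the log2 scale. Ratios and shares used CPM per kb of the longest transcript. DESeq2 1.42.0, other scalings and filters, a GC and length offset (mgcv 1.9.3), a replicate block, thinning and leaving out each library were alternatives. The code was tested on simulated data. Every member is named except 1, which is not reported here and is left out of all counts; in each partner list, the 4 genes with the smallest p among those called are given with values. Fn1, the genes that rose and a few further calls were named after their values were seen. The members and lists were chosen with earlier results of these data known.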

Additional observations from a re-analysis of the deposited data

How the results depend on the processing

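Of the 16 genes called, 14 passed in all 16 alternative fits at the same threshold; Itgav and Itga2 each passed in 10. The number of integrin and laminin genes higher ranged from 5 to 8 and lower from 9 to 11 over all settings. Upper-quartile factors moved the all-gene median of the log2 fold change to -0.0552 and total-count scaling to 0.0646, and the share of all called genes that was higher, 50.2% with TMM, was 44% and 57.1%.

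The replicate number did not pair the libraries: deviations from the group means of equally numbered libraries correlated at a mean of 0.0198 (-0.0138 to 0.0719). With the number as a block, 6 genes were higher and 10 lower.

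The integrin ligands higher, 2 in the report, numbered 3 with total-count scaling. They numbered 1 with upper-quartile factors, with the GC and length offset, with the offset and block and at an adjusted p under 0.01. With a library left out they numbered 1 to 2. The basement membrane partners higher, 3 in the report, numbered 5 with total-count scaling and 4 with no low-count filter, with the block and with the offset. They numbered 2 with upper-quartile factors and at an adjusted p under 0.01, and 2 to 3 with a library left out. Genes that did not pass the test and turned sign were Itga10 (-0.0302 with the block, -0.00799 with offset and block, -0.335 to 0.464 when a library was left out), Itgb1 (-0.0306 with the offset, -0.0298 with offset and block), Lama2 (-0.013 and -0.0158), Lamb2 (0.0228 with total count, 0.0411 with the offset, 0.044 with offset and block, -0.126 to 0.0548 when a library was left out) and Lamb3 (0.0128 with total count, 0.0161 with the offset, 0.0146 thinned, -0.469 to 0.251 when a library was left out). The cause was not tested. Of the 10 genes with under 100 reads on average 2 were called, and their intervals are wide; with all libraries thinned to the smallest, 7 genes were higher and 11 lower.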
